A study of Mus musculus with 4 samples.

Results

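HMGA proteins, IGF2 mRNA-binding proteins and the let-7 inhibitor LIN28B were examined in neural stem and progenitor cells of the mouse neocortex grown as neurospheres. The genes considered were Hmga1, Hmga2, Igf2bp1, Igf2bp2, Igf2bp3 and Lin28b, and their probes were found by gene symbol in the annotation supplied for the Illumina bead array. That gave 16 of the 45259 probes of the scanner table, 3 for Hmga2, 5 for Igf2bp1, 5 for Igf2bp3 and 3 for Lin28b. Hmga1 and Igf2bp2 had no probe under their names in that annotation and were not analysed here. The design compared 2 cultures that overexpressed Bmi1, a polycomb protein that sustains stem cell self-renewal, with 2 transgenic control cultures. All 4 came from conditional Cre/LoxP transgenic mice on the C57BL/6 background and stood for 5 days in suspension with EGF and FGF2 (20 ng/ml each). No source used here gives the Cre driver, the alleles that the control cells carry or the age of the animals. Nothing in the labels says whether the biological replicates of a group came from separate animals, so p-values measure only the spread between these samples. Sex-linked transcripts, given below, differed between the 2 controls.

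HMGA1 and HMGA2 are small architectural proteins that bind AT-rich DNA through AT-hooks and loosen chromatin. In the mouse forebrain Hmga2 is known to keep young neural stem cells dividing by lowering expression of the Ink4a-Arf locus, the same locus that Bmi1 silences. The 3 IGF2BP proteins bind mRNAs and control their stability, localisation and translation, and are mostly fetal in expression. LIN28B blocks the maturation of let-7 microRNAs, while let-7 represses Hmga2, Lin28b and the Igf2bp genes through sites in their mRNAs. These genes therefore form a known developmental circuit, with Lin28b and let-7 as its opposing regulators.

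The let-7 family was not measured here, and 4 of its mature sequences are shown because their seed is the part that pairs with the mRNAs of these genes. Capitals mark the seed, bases 2 to 8 from the 5′ end.
let-7a-5p: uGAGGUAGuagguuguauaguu
let-7b-5p: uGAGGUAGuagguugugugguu
let-7g-5p: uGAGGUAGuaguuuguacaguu
let-7i-5p: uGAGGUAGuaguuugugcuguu
The sequences are from RefSeq on GRCm38.p6, at chr13:48538239-48538260 (minus strand) for a let-7a locus, chr15:85707325-85707346 (plus strand) for let-7b, chr9:106178846-106178867 (plus strand) for let-7g and chr10:122985698-122985719 (minus strand) for let-7i. Among 13 annotated let-7 and miR-98 loci there were 11 distinct mature sequences from the 5′ arm, and 10 of them shared this seed, GAGGUAG. The exception, let-7j, differs in the last seed base.

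The arrays detected 16495 to 18242 probes each at a detection p under 0.05, with mean signals of 191 to 233 scanner units, lowest on the second array labelled Bmi1. Both deposited tables hold the same arrays but name the groups in opposite ways. Columns of the processed table filed under controls had a Spearman correlation of 1.00 across probes with the arrays that the scanner table heads as Bmi1 cells, and at most 0.898 with any other array. Groups are named here by the scanner headers, so every direction below is opposite under the names of the processed table. The transcript of Bmi1, read by 1 probe, had signals of 79.4 and 62.7 in controls against 53.3 and 77.7 under the Bmi1 label. Its groups overlapped (log2 difference 0.24, SE 0.29, limma adjusted p = 0.68, turning to -0.13 without the second array labelled Bmi1). No source used here places this probe relative to the transgene, so it checks no label. Control array 1 differed from the other 3 in the X-inactivation transcript Xist, at 114.7 to 970.5 over 4 probes against at most 8.4 elsewhere, and in the Y-linked gene Eif2s3y, at -1.8 against 204.6 to 239.6 for probe ILMN_1241001. Control array 1 thus had the pattern of female cells and the other 3 that of male cells, so the controls did not come from the same animal. The labels give no sex. Values without control array 1 are given below for 3 of the Igf2bp3 probes and for several listed genes. Markers of neural stem and progenitor cells were present, with 8 of 10 detected, while 0 of 5 endothelial and 0 of 6 mesenchymal markers were.

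Of the 4 genes with probes, Igf2bp3 was detected and the other 3 were not. All 5 Igf2bp3 probes passed detection on each of the 4 arrays, with signals from 13.7 to 1237.6. The 11 probes of Hmga2, Igf2bp1 and Lin28b were below detection on every array, so 0 of their 44 probe readings were detected. Their signals ran from -13 to 7.4, and 26 of the 44 lay at or below 0 after the deposited background subtraction. The lowest signal that passed detection was 7.7 to 9.0, depending on the array. Of all probes with a gene name, 49.4% were likewise detected on no array. Of the 4116 genes with 3 or more probes, 16.8% had no probe detected anywhere.

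**Figure D1:**
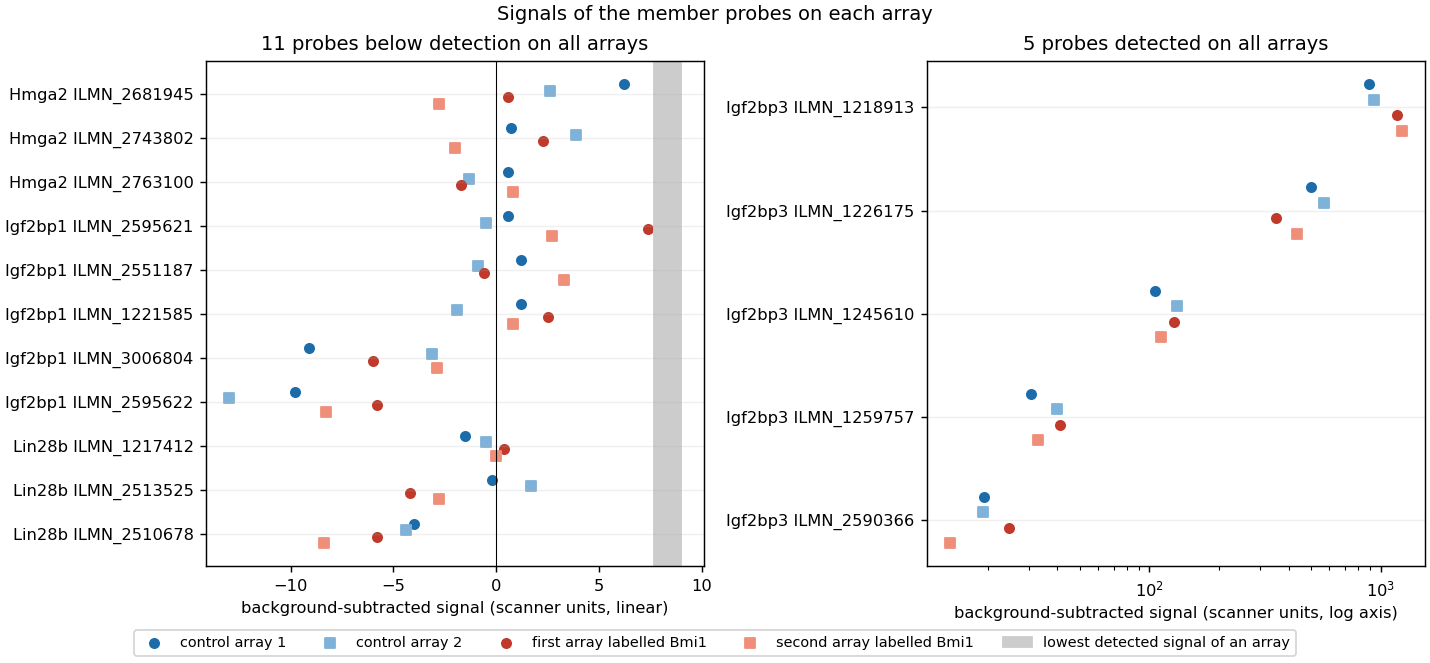
Background-subtracted signals of the 16 probes on each of the 4 arrays (points), with a linear axis for the 11 probes below detection on the left and a log axis for the 5 Igf2bp3 probes on the right. The grey band marks the lowest detected signals of the arrays, 7.7 to 9.0, and the points of Hmga2, Igf2bp1 and Lin28b all lie to the left of it.

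Hmga2, the AT-hook protein of young stem cells, was read by 3 probes to the same RefSeq transcript. Probe ILMN_2681945 gave 6.2 and 2.6 for the controls against 0.6 and -2.8 for the arrays labelled Bmi1. Probe ILMN_2743802 gave 0.7 and 3.9 against 2.3 and -2. Probe ILMN_2763100 gave 0.6 and -1.3 against -1.7 and 0.8. On ILMN_2681945 both controls were above both arrays labelled Bmi1, while the groups overlapped on the other probes. All of these readings were below detection. No share of all probes with groups apart is given here for deposited signals, so that separation is not read as a difference. With both groups below detection there is no fold change to report, and a difference in Hmga2 was not detectable at this signal.

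Igf2bp1, the fetal member that stabilises mRNAs such as Myc, was read by 5 probes, with signals from -13 to 7.4. The reading nearest to detection was that of probe ILMN_2595621 on the first array labelled Bmi1, at a signal of 7.4 and a detection p of 0.0545. The same probe gave 0.6 and -0.5 on the controls and 2.7 on the second array labelled Bmi1, so both arrays of that group were above both controls, all below detection. Probe ILMN_2551187 gave 1.2 and -0.9 for controls against -0.6 and 3.3, and probe ILMN_1221585 gave 1.2 and -1.9 against 2.5 and 0.8, with overlap on both. Probes ILMN_2595622 and ILMN_3006804 were below 0 on all 4 arrays, between -13 and -2.9. On ILMN_2595622 both arrays labelled Bmi1 (-5.8 and -8.3) were above both controls (-9.8 and -13), and on ILMN_3006804 the groups overlapped. As for Hmga2, no share over all probes stands beside these separations, and they are not read as a difference. A difference in Igf2bp1 was likewise not detectable.

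Lin28b, which keeps let-7 low early in development, was below detection throughout, with a smallest detection p of 0.329 over its 3 probes and 4 arrays. Signals were -1.5, -0.5, 0.4 and 0 for probe ILMN_1217412 on control arrays 1 and 2 and the first and second array labelled Bmi1. In the same order probe ILMN_2513525 gave -0.2, 1.7, -4.2 and -2.8, and probe ILMN_2510678 gave -4, -4.4, -5.8 and -8.4. Both arrays labelled Bmi1 were above the controls on the first of these probes and below them on the others, all short of detection. Here too no share over all probes stands beside the separations, and no difference in Lin28b was detectable. Its paralog Lin28a, which also blocks let-7 maturation, was below detection on all arrays by each of 4 probes, at -4.5 to 7.7.

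Igf2bp3, an RNA-binding protein of fetal tissues and many tumours, had log2 differences between the groups of -0.16 to 0.61 over its 5 probes, none of which passed the adjusted test. The values below are log2 values after background correction and quantile normalization. Probe ILMN_1218913 was at 9.73 and 9.77 for the controls against 10.23 and 10.5 for the arrays labelled Bmi1, so the groups did not overlap. The difference was 0.61 (SE 0.20, n = 2 arrays per group, 95% interval 0.13 to 1.09), or 1.53-fold, with an unadjusted p = 0.019 and an adjusted p = 0.173 in limma. It did not pass the threshold of 0.05. The deposited signals of this probe were 894.2 and 939.1 against 1180.2 and 1237.6, apart in the same direction.

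The other bright Igf2bp3 probe did not follow it. Probe ILMN_1226175, annotated to the same RefSeq transcript, was at 8.9 and 9.05 for the controls against 8.56 and 9.08 for the arrays labelled Bmi1. Its difference was -0.16 (SE 0.24, 95% interval -0.71 to 0.40, limma adjusted p = 0.752), and the groups overlapped. The first array labelled Bmi1 was low and the second stood at the level of the controls. Before normalization its signals were 499.3 and 569.5 against 353.9 and 435.3, both lower in the arrays labelled Bmi1, which were the dimmer arrays as a whole. Its sign turned to 0.10 without the first array labelled Bmi1, and it was -0.42 without the second.

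The 3 remaining Igf2bp3 probes were dimmer, and none passed in limma. Probe ILMN_1245610, designed on a cDNA clone, was at 6.8 and 7.0 against 7.21 and 7.32, a difference of 0.37 (SE 0.20, adjusted p = 0.345). Probe ILMN_1259757, designed on another clone, was at 5.46 and 5.64 against 5.87 and 5.89, a difference of 0.33 (SE 0.20, adjusted p = 0.386). On both probes the arrays labelled Bmi1 were above the controls after normalization, while the deposited signals overlapped, at 105.2 and 131.4 against 127.1 and 112.4 for ILMN_1245610 and at 30.6 and 40 against 41.1 and 33.1 for ILMN_1259757. Without control array 1 their differences were 0.26 and 0.24. Probe ILMN_2590366 was at 5.09 and 5.03 against 5.37 and 5.01, an overlap with a difference of 0.13 (SE 0.21, adjusted p = 0.773). It turned to -0.05 without the first array labelled Bmi1 and was 0.31 without the second.

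Across Igf2bp3, 4 of 5 probes had a positive difference and 1 a negative one, against 49% of all 18237 detected probes with a positive one. After normalization the groups did not overlap for 3 of the 5, each higher under the Bmi1 label. In the deposited signals ILMN_1218913 was apart and higher, ILMN_1226175 apart and lower, and the others overlapped. No share over all probes is given here for those signals. Among all detected probes the groups did not overlap, after normalization, for 53.6%, with 26.3% higher and 27.3% lower. With limma 0 of the 5 passed the adjusted threshold, against 0% of all detected probes. At an unadjusted p under 0.05 there was 1 of the 5, ILMN_1218913, and 20.8% of all detected probes were under it (10.7% higher and 10.1% lower), so the count for Igf2bp3 is close to the background. Without control array 1, the array with Xist signal, ILMN_1218913 stood at 0.59. Leaving out any single array gave 0.48 to 0.75 for this probe. Such a fit leaves a single array in its group, so no count or p-value is given for it.

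The 2 brightest Igf2bp3 probes were also set against each other within each array, a comparison chosen after their values were seen. They had the highest and the lowest difference of the 5, so this pair is the widest apart. The log2 ratio of ILMN_1218913 to ILMN_1226175 was 0.83 and 0.72 for the controls against 1.67 and 1.42 for the arrays labelled Bmi1, so the groups were apart. The means were 0.78 ± 0.08 and 1.55 ± 0.18 (SD, n = 2 each), a difference of 0.77 (exact permutation test, two-sided, p = 0.333, the smallest that 2 against 2 can give). It was 0.64 to 0.89 when any single array was left out. Probes of 1 gene often disagreed on these arrays. Of 63 genes with 5 or more detected probes, 48 (76.2%) had probes of both signs, and 31 (49.2%) had a range of differences at least as wide as that of Igf2bp3. No source used here places the probes along the transcript.

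**Figure D2:**
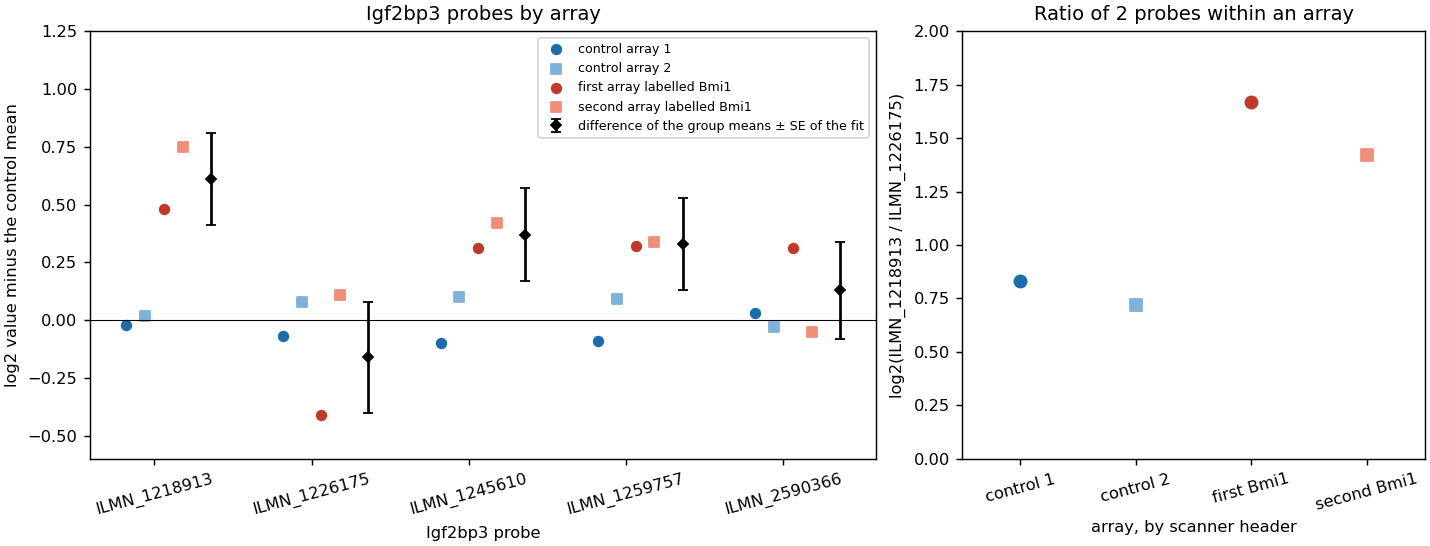
Left, log2 values of the 5 Igf2bp3 probes on each array relative to the mean of the control arrays (points), with the difference of the group means and its SE (diamonds). Right, the log2 ratio of probes ILMN_1218913 and ILMN_1226175 within each array, at 0.83 and 0.72 in controls and 1.67 and 1.42 under the Bmi1 label.

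In the deposited processed table the differences of the Igf2bp3 probes had the opposite signs under its own group names. ILMN_1218913 stood at 10.24 and 10.5 in the columns filed as controls and 9.77 and 9.80 in those filed as Bmi1, a difference of -0.59 (limma adjusted p = 0.138). ILMN_1226175 stood at 8.66 and 9.14 against 8.98 and 9.11, a difference of 0.15. The 11 probes of Hmga2, Igf2bp1 and Lin28b lay between 5.14 and 5.79 there, mostly below the median of 5.69 that each column has.

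Markers of other cell types were read on the same arrays, and none passed the adjusted threshold in limma (smallest adjusted p = 0.133). Of 7 astrocyte markers 6 were detected, with negative differences in all 6 and an unadjusted p under 0.05 in 5. The summed signal of the list was 9000 and 9990 for the controls against 5470 and 3690 for the arrays labelled Bmi1. Of 8 oligodendrocyte lineage markers with a probe 7 were detected, 4 with a negative difference, each at an unadjusted p under 0.05. The 3 with a positive one were Cspg4 (0.46), Pdgfra (0.24) and Olig1 (0.09), none at an unadjusted p under 0.05. Their groups were apart, as were those of 26.3% of all detected probes in that direction. The summed signal of the lineage list was 20900 and 17200 against 17000 and 14800. Of 8 neuronal markers 5 were detected, 2 with a positive and 3 with a negative difference and a median of -0.12, with 1 lower at an unadjusted p under 0.05. Their sums were 3540 and 3320 against 2930 and 1820 on arrays that differ in mean signal, and Tubb3, Snap25 and Stmn2 were below detection. Of 6 microglial markers 2 were detected, Aif1 and Csf1r, at signals of at most 14.3. Both had a positive difference, 1 of them at an unadjusted p under 0.05. Of 10 proliferation genes 8 were detected, with positive differences in all 8 and an unadjusted p under 0.05 in 2, with sums of 2300 and 4050 against 4070 and 5760. Their part in the Igf2bp3 values was not tested. In these bulk cultures, fewer cells of a type and less RNA per cell cannot be told apart.

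Genes around these regulators were described from 5 lists with 1 probe per gene, the one with the highest mean. None of the listed genes passed the adjusted threshold in limma, and neither did any of the 12809 features (0%). An unadjusted p under 0.05 was reached by 22% of features (12.2% higher, 9.76% lower), and the median difference of all features was 0.01.

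The list of the let-7 and Lin28 axis held microRNA processing enzymes, uridylases that act with Lin28 and mRNAs known to carry let-7 sites. Of its 27 genes 16 were detected, 7 with a positive and 9 with a negative difference, and the median log2 difference was -0.14, which was 0.02 with no filter on detection. An unadjusted p under 0.05 was reached by 5 of 16, 2 higher and 3 lower. Tut7, a uridylyl transferase that acts on let-7 precursors, was at 9.44 and 9.44 against 10.16 and 10.3 (difference 0.80, SE 0.19, adjusted p = 0.133). Its other probes stood at 0.93, 0.09 and 0.18. The cell cycle factor E2f5 was at 8.11 and 8.27 against 8.69 and 9.16 (0.73, SE 0.23). On the other side, the zinc finger factor Plagl2 was at 8.93 and 9.12 against 8.35 and 8.13 (-0.79, SE 0.20, adjusted p = 0.134). The TGF-beta receptor Tgfbr1 had a difference of -0.55 (SE 0.22), which was -0.35 without control array 1, with its other probe at -0.17. Myc was dim, with signals of 41.6 and 37.6 for the controls against 19.5 and 16.1. It had a difference of -0.50 (SE 0.19), which was -0.28 with an offset of 50 in place of 16. For each of these 5 genes the groups did not overlap, as for 53.6% of all detected probes.

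Dicer1, Drosha, Dgcr8, Ago2 and Dis3l2 stood within 0.5 of 0 with all arrays, by the probe used for each gene. Dicer1, which cuts precursors to mature microRNAs, had a difference of -0.42 (SE 0.21, limma adjusted p = 0.281), with other probes at -0.33 and -0.49. Drosha, which cuts the primary transcript, stood at -0.30 (SE 0.23), with its other probe at -0.29. The Drosha value was -0.06 without the second array labelled Bmi1. The Drosha partner Dgcr8 stood at 0.36 (SE 0.20). Ago2, the effector protein, was at -0.28 (SE 0.20), with other probes at -0.56 and -0.21. Dis3l2, the nuclease that degrades uridylated let-7 precursors, stood at -0.22 (SE 0.23) and at 0.01 without control array 1. The uridylyl transferase Tut4, the let-7 targets Trim71, Arid3b, Mycn and Plag1, and Lin28a were below detection on every array.

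The IGF axis was included because IGF2BP proteins take their name from the mRNA of Igf2, a fetal growth factor. Of its 14 genes 11 were detected, 7 with a positive and 4 with a negative difference, and the median was 0.27. An unadjusted p under 0.05 was reached by 2 of 11, both higher in the arrays labelled Bmi1. Igf2 was dim, with signals of 16.1 and 20.0 for the controls against 26.9 and 24.0 for the arrays labelled Bmi1 (log2 difference 0.49, SE 0.19, limma adjusted p = 0.203). Igf2r, which clears IGF2 from the cell surface, was at 6.42 and 6.36 against 6.82 and 7.04 (0.54, SE 0.20, adjusted p = 0.187), with its other probe at -0.12. The signalling receptors stood at 0.40 (SE 0.21) for Igf1r, with other probes at 0.57 and -0.21, and at 0.27 (SE 0.20) for Insr. Igfbp2, which binds IGFs outside the cell, was at 10.58 and 11.31 against 10.42 and 10.75 and overlapped between the groups, with a difference of -0.37 (SE 0.28) and its other probe at -1.12. Without control array 1 the difference was -0.73 and without control array 2 it was 0.

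Proteins known to share RNA granules or mRNA targets with the IGF2BPs had a median difference of -0.06, which was 0 with median scaling and 0.01 with no filter on detection. Of 16 such genes 15 were detected, 7 with a positive and 8 with a negative difference. The mRNA stabiliser Elavl1 was the 1 of 15 at an unadjusted p under 0.05, at 8.9 and 9.11 against 9.52 and 9.95 (difference 0.73, SE 0.23, limma adjusted p = 0.153), with its other probe at 0.05. The largest negative difference was that of the mRNA decay factor Khsrp, at 8.1 and 8.9 against 8.4 and 7.63 (-0.49, SE 0.35), an overlap that ran from -0.89 to -0.09 when single arrays were left out. Ybx1, Syncrip and Dhx9, which form a coding-region stability complex with IGF2BP1, stood at 0.18 (SE 0.20), 0.18 (SE 0.19) and 0.09 (SE 0.36), the last turning to -0.28 without control array 1 and to -0.36 without the first array labelled Bmi1.

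Other high mobility group proteins were detected for 10 of 14 genes, with a median of 0.10. Of the 10, 7 had a positive difference and 3 a negative one, and 4 had an unadjusted p under 0.05, 2 in each direction. Hmgxb3 was at 9.09 and 8.81 against 9.8 and 10.06 (difference 0.98, SE 0.21, limma adjusted p = 0.133), with other probes at 0.66 and 0.07, and Tox3 had a difference of 0.67 (SE 0.22). Tox stood at -0.63 (SE 0.21) and Hmg20b at -0.70 (SE 0.28), the latter -0.37 without the second array labelled Bmi1. The nucleosome-binding proteins Hmgn1, Hmgn2 and Hmgn3 stood at 0.02, 0.22 and -0.03 (SE 0.19, 0.20 and 0.21), with Hmgn3 at 0.17 under median scaling, and Hmgb2, a DNA-bending protein of dividing cells, at 0.52 (SE 0.26), which moved to 0.19 on leaving out control array 1 and to 0.85 on leaving out control array 2.

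A list of cell cycle inhibitors included the Ink4a-Arf locus, which Hmga2 and Bmi1 are known to hold down. It also counted Junb, a link from Hmga2 to the locus but not itself such an inhibitor, and 7 of 7 genes were detected. Their median was 0.24, 5 had a positive difference and 2 a negative one, and 0 of 7 had an unadjusted p under 0.05 in limma. Cdkn1a, which encodes p21, was at 9.95 and 10.43 against 10.55 and 10.77 (difference 0.47, SE 0.24, adjusted p = 0.293). The difference was 0.23 without control array 1 and 0.71 without control array 2, and other probes of Cdkn1a stood at 0.07 and 0.23. Cdkn2a, the Ink4a-Arf gene, was at 4.91 and 6.52 for the controls against 6.32 and 5.65 for the arrays labelled Bmi1, so the controls lay on either side of the other arrays. Its difference of 0.27 (SE 0.50) was -0.54 without control array 1 and 0.86 without control array 2. Other probes of Cdkn2a stood at 0.49 and 0.39. Junb was at 5.28 and 5.22 against 4.82 and 4.84 (difference -0.42, SE 0.19, adjusted p = 0.247). The median without control array 1 was 0.11 and without control array 2 it was 0.37.

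**Figure D3:**
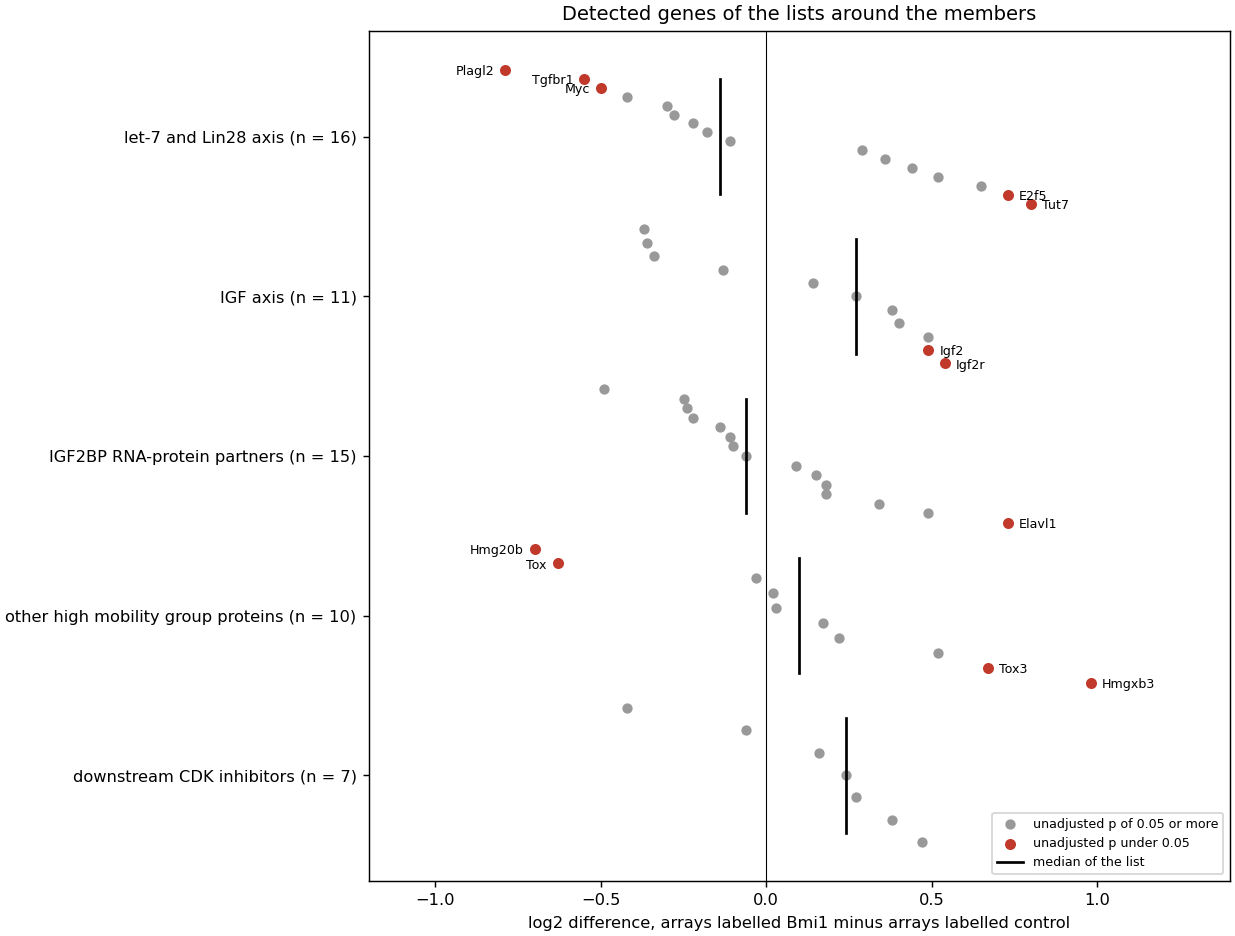
Log2 difference of each detected gene of the 5 lists, arrays labelled Bmi1 minus arrays labelled control, with 1 probe per gene and the list median as a black line. Red points have an unadjusted p under 0.05, none passed the adjusted threshold, and the medians lie between -0.14 and 0.27.

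The genes with the pattern most like that of Igf2bp3 were sought among 8624 other named genes detected on all arrays. Likeness was the Euclidean distance between log2 values over the 4 arrays, each gene centred on its mean, with ILMN_1218913 standing for Igf2bp3. The 3 nearest were Otud7b, a deubiquitinase (distance 0.0426), Abhd17b, a depalmitoylating enzyme (0.0434), and Bbs2, a protein of the primary cilium (0.0466). Otud7b was at 7.66 and 7.7 for the controls against 8.17 and 8.48 for the arrays labelled Bmi1, Abhd17b at 5.41 and 5.47 against 5.87 and 6.15, and Bbs2 at 5.57 and 5.65 against 6.05 and 6.34. In total 400 genes lay within a distance of 0.2.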

How the data were processed

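Per the file headers, the authors deposited a scanner table with a signal intensity and a detection column per array. The intensities were already background-subtracted (31.2 to 33.9% lie at or below 0), and the detection column, which rises with signal, was read as 1 minus p. The authors' deposited processed table holds log2-like values, quantile-normalized as their shared minimum of 4.71 and maximum of 15.13 show, with transform and background step not given in the sources used here. The submitters' processing notes name lumi. The scanner headers give 5CTR, 7CTR and, for both other arrays, 1DT, so the arrays labelled Bmi1 are called first and second by their place. Rows without a probe identifier (22) were left out.

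The neqc function of limma 3.58.1 (R 4.3.3) corrected and quantile-normalized the signals, with an offset of 16. The 18237 probes with a detection p under 0.05 on at least 2 arrays were fitted with lmFit and eBayes, with group as the only term, two-sided, with Benjamini-Hochberg adjustment over all of them at 0.05. Lists used 1 probe per gene, and other probes are given for only some of the genes named. The annotation gives 1 symbol for 34872 probes, several for 18 and none for 10369. Of 78 list entries 73 had a probe. Listed genes were named at an unadjusted p under 0.05 or at the largest difference each way. Other listed genes in the text were chosen after their values were seen. The members and lists were chosen with earlier results of these data known. The fit was tested on simulated data. With 2 arrays a group, precision is limited by their number. No slide or scan date is given, so no batch was tested.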

Additional observations from a re-analysis of the deposited data

How the results depend on the processing

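Under the alternatives that kept all arrays, 0 Igf2bp3 probes passed the adjusted threshold, and no other probe did either. With no filter on detection 3 of the 16 probes had an unadjusted p under 0.05, all Igf2bp3, against 12.3% of all probes, and with no background correction beyond the deposited one 2 of 5 had, against 16.3%. A fit without 1 array leaves a single array in its group, so no count is given for such fits here. Quantile against median scaling moved the median of all probes from -0.01 to 0.12 and the share of higher probes from 49% to 60.6%, with ILMN_1218913 at 0.72 and ILMN_1226175 at -0.10. Leaving out single arrays gave -0.42 to 0.10 for ILMN_1226175 and -0.05 to 0.31 for ILMN_2590366.

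With the processed table, whose group names are opposite by construction, every sign turned. The Igf2bp3 probes stood at -0.59 (ILMN_1218913), 0.15 (ILMN_1226175), -0.29 (ILMN_1245610), -0.20 (ILMN_1259757) and -0.07 (ILMN_2590366), and their ratio at -0.73. Values there were -0.67 for E2f5, 0.52 for Tgfbr1, -0.76 for Tut7, 0.28 for Myc, 0.73 for Plagl2, -0.41 for Igf2r, -0.27 for Igf2, -0.69 for Elavl1, 0.60 for Hmg20b, -0.42 for Tox3, -0.93 for Hmgxb3, 0.45 for Tox and -0.18 for Bmi1. They were 0.37 for Dicer1, 0.28 for Drosha, -0.27 for Dgcr8, 0.24 for Ago2, 0.18 for Dis3l2, -0.34 for Igf1r, -0.25 for Insr, 0.36 for Igfbp2, -0.19 for Ybx1, -0.17 for Syncrip, -0.07 for Dhx9, 0.44 for Khsrp, -0.03 for Hmgn1, -0.21 for Hmgn2, 0.03 for Hmgn3, -0.48 for Hmgb2, -0.46 for Cdkn1a, -0.12 for Cdkn2a and 0.21 for Junb. List medians were 0.13 (let-7 and Lin28), -0.25 (IGF), 0.05 (IGF2BP partners), -0.09 (high mobility group) and -0.15 (cell cycle inhibitors). A replicate block on that table left these values in place, with an adjusted p = 0.166 for ILMN_1218913 against 0.138 without the block in limma. Same-numbered samples deviated oppositely there (correlation -0.202), which cannot settle whether they were paired. The labels give them only a shared number. With crossed numbers, chosen after seeing the data, 1 of 5 Igf2bp3 probes had an unadjusted p under 0.05 in limma. In that fit 23.9% of all detected probes were under it, and 0 passed the adjusted threshold.

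List medians moved with median scaling to -0.07 (let-7 and Lin28), 0.40 (IGF) and 0.22 (high mobility group). With no filter they were 0.02 (let-7 and Lin28), 0.17 (IGF) and 0.01 (IGF2BP partners), and under a stricter detection p of 0.01 on each array 0.01 for the IGF2BP partners. Leaving out single arrays gave -0.11 to 0.05 for let-7 and Lin28, 0.11 to 0.37 for IGF, -0.08 to 0.04 for the IGF2BP partners, 0.03 to 0.21 for the high mobility group and 0.11 to 0.37 for the cell cycle inhibitors. The cause was not tested. Signs also turned when single arrays were left out for Bmi1 (-0.13 to 0.61), Dis3l2 (-0.45 to 0.01), Dhx9 (-0.36 to 0.53), Hmgn1 (-0.06 to 0.10), Hmgn3 (-0.16 to 0.11) and Cdkn2a (-0.54 to 0.86), and for Hmgn3 with median scaling (0.17). With the sign kept, the range was -0.42 to -0.13 for Ago2, 0.12 to 0.31 for Hmgn2, 0.26 to 0.55 for Igf1r, 0.17 to 0.37 for Insr and 0.08 to 0.29 for Ybx1. Signal over background limits Hmga2, Igf2bp1 and Lin28b, for which no difference can be read.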
